A study of Homo sapiens with 15 samples.

Results

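NTERA2 cells given an siRNA against IGF2BP1 were compared directly with NTERA2 cells given an siRNA against IQGAP3, over all genes of the deposited count table. The comparison took 6 of the 15 libraries of the series, the 3 labelled siIGF2BP1 and the 3 labelled siIQGAP3, and it left out the control siRNA (siControl) libraries. NTERA2 is an established human line from an embryonal carcinoma, a tumour of pluripotent cell type. Cells of both groups were kept in DMEM with 10% serum and received siRNA 2 times over 7 days, and total RNA was sequenced as paired reads. The labels name the target of each siRNA and nothing further about it. Whether the libraries of a group derive from separate cultures is not stated in the labels, and p-values here reflect the library-to-library spread alone, part or all of which may be technical.

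IGF2BP1 is an oncofetal RNA-binding protein, made in embryonic tissue and again in many tumours, that binds messenger RNAs in the cytoplasm and is known for protecting them from decay. IQGAP3 is one of the IQGAP scaffold proteins, which bind small GTPases such as Rac1 and Cdc42 and link them to actin filaments and to ERK signalling, and it is made mainly in dividing cells. Embryonal carcinoma cells hold the pluripotency network of POU5F1, SOX2, NANOG and LIN28, and NTERA2 is known for leaving that state along neural and other lines, with HOX genes switched on in turn, when given retinoic acid.

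Expression is given in CPM, the usual measure of a gene's count relative to the effective size of its library. A log2 fold change is siIGF2BP1 minus siIQGAP3, so that a positive value means a higher level in siIGF2BP1. It is given with an approximate standard error (SE), its size divided by the square root of the test's F value. This SE is too small where a group holds only a few counts. A gene is called higher or lower where the p-value of edgeR's quasi-likelihood test, adjusted by the Benjamini-Hochberg method over the 17769 genes tested, is under 0.05. Of these genes 12192 were called, which is 68.6% of those tested. Higher in siIGF2BP1 were 6457 genes (36.3%), and lower were 5735 (32.3%). At least 2-fold differences made up 39% of the genes tested, 21.5% higher and 17.5% lower. The median log2 fold change of all genes was 0.04, and the libraries of the 2 groups did not overlap for 76.4% of the genes. Any list of genes is therefore read below against these shares, and a count near them is no result about the list, and a gene can stand on more than 1 list. Genes named from a list are those of its smallest p-values, unless said otherwise. Lack of overlap between the groups for such genes follows largely from that choice and is no result about them.

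The libraries stood apart in ways that the siRNA labels do not cover. Totals were 35275570 to 42920197 counts in the 6 libraries. The first principal component held 88.1% of the variance and separated the siIGF2BP1 from the siIQGAP3 libraries, and the second (9.65%) separated siIGF2BP1 library 3 from libraries 1 and 2. Library 3 was at least 2-fold above libraries 1 and 2 for 923 genes and at least 2-fold below them for 757, of 14945 genes. Without it 15606 genes were called, 86% of those tested (7952 higher and 7654 lower of 18141), and the counts of a list are given without it where they moved by over 1.5 times. With all 15 libraries in 1 fit 9367 genes were called, 49.9% of those tested (5245 higher and 4122 lower of 18760). List counts from these 2 fits are to be read against these shares, because the calls of all genes moved too. Among the 6929 genes that differed at least 2-fold, the levels of siControl libraries 1 and 2 lay nearer to siIGF2BP1 for 89.0% and 93.1%, whereas those of siControl library 3 lay nearer to siIQGAP3 for 78.9%. For those genes the siRNA and whatever else sets siIQGAP3 and siControl library 3 apart from the others cannot be told apart, so siControl levels are given beside the main results.

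Sequences are shown for the 2 genes with the largest increases and the 2 with the largest decreases that have an entry in the RefSeq promoter table, to show what lies before the start of genes that differed most. Each is the 250 bases before the start, 5′ to 3′ on the gene's own strand, from build GRCh38.p14, and CTAG2, the gene with the largest increase of all, is named only. Capitals mark CG pairs and matches, on either strand, to the 3 motifs searched, ATGCAAA (the core of the octamer that POU factors read), TATAAA (the TATA box) and CACGTG (the E-box).
HOTTIP, chr7:27200171-27200420, plus strand: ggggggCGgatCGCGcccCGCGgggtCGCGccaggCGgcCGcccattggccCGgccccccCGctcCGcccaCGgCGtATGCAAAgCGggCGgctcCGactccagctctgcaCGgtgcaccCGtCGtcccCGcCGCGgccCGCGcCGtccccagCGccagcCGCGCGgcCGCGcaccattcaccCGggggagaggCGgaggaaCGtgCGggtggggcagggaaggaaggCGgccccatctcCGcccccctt
PPP1R3A, chr7:113919010-113919259, minus strand: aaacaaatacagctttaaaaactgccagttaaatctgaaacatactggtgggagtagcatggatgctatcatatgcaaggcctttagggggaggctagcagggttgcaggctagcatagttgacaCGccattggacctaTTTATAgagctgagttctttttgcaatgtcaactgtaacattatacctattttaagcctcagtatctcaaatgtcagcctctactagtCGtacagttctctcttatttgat
DPPA3, chr12:7711183-7711432, plus strand: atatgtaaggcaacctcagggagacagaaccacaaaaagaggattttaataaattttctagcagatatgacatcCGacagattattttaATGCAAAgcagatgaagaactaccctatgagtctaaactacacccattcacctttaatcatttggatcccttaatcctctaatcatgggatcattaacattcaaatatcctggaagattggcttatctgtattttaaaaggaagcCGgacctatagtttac
TM4SF18, chr3:149333637-149333886, minus strand: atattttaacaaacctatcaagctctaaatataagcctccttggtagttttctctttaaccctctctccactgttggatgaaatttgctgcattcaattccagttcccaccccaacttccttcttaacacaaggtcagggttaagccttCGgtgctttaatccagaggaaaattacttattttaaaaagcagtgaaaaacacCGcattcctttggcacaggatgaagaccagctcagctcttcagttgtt
The HOTTIP sequence held 38 CG pairs, and the PPP1R3A, DPPA3 and TM4SF18 sequences held 2 each, beside a median of 20 over the 13223 tested genes with an entry. ATGCAAA was found before HOTTIP and DPPA3, and in 2.89% of all those sequences. TATAAA was found before PPP1R3A, on the reverse strand, and in 6.16% of all, and CACGTG was in none of the 4 and in 8.36% of all. CACGTG itself holds a CG pair, no motif match in these 4 sequences overlapped another, and a match is a description of letters, not of a site in use.

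The 4 siRNA targets of the series were lower in siIGF2BP1 than in siIQGAP3, the IQGAP3 transcript included. IGF2BP1 was at 164, 168 and 221 CPM in siIGF2BP1 and 828, 750.4 and 769 CPM in siIQGAP3. Its level did not overlap between the groups, and the log2 fold change was -2.09 ± 0.14 (adjusted p = 4.22e-05). IQGAP3 itself was at 21, 21 and 14.2 CPM in siIGF2BP1 and 51.5, 48.7 and 48.2 CPM in siIQGAP3, beside 105, 126 and 82.9 CPM in the siControl libraries. All 3 libraries given the IQGAP3 siRNA thus held less IQGAP3 than every siControl library and more than every siIGF2BP1 library, with a log2 fold change between the groups of -1.4 ± 0.16 (adjusted p = 4.36e-04). SRF, the transcription factor of actin cytoskeleton genes, was at 7.5, 7.84 and 5.52 CPM in siIGF2BP1 and 94.8, 93.8 and 91.9 CPM in siIQGAP3. The siControl libraries held 82.6, 91.5 and 87.1 CPM of SRF, on the side of siIQGAP3, and the log2 fold change was -3.75 ± 0.15 (adjusted p = 8.60e-06). FOXM1, the transcription factor of mitotic genes, was at 275, 288 and 210.1 CPM in siIGF2BP1 and 774, 783 and 784 CPM in siIQGAP3, with a log2 fold change of -1.6 ± 0.13 (adjusted p = 9.16e-05). For SRF and FOXM1 all 3 siControl libraries, library 3 and libraries 1 and 2 alike, were above the highest siIGF2BP1 library. The deposited count and normalised tables give different values for these 4 genes, and taking the normalised values instead left all 4 called in the same direction.

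**Figure D1:**
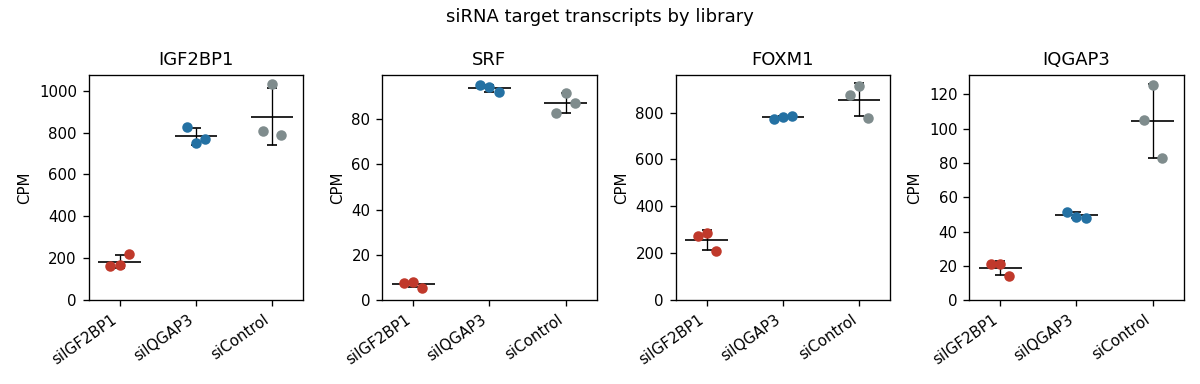
CPM of the 4 siRNA target transcripts by library, with the points for the 3 libraries of siIGF2BP1, siIQGAP3 and siControl, the mean as a line and the SD as bars, each panel starting at 0. IGF2BP1, SRF, FOXM1 and IQGAP3 are lowest in the siIGF2BP1 libraries, and IQGAP3 in siIQGAP3 (48.2 to 51.5 CPM) lies between siIGF2BP1 (14.2 to 21 CPM) and siControl (82.9 to 126 CPM).

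The largest increases in siIGF2BP1 were genes with no or nearly no counts in any siIQGAP3 library, and 7 of the 12 were cancer-testis genes, which are normally silent outside the germ line. CTAG2, a cancer-testis antigen gene of the X chromosome, was at 156, 179 and 113 CPM in siIGF2BP1 and 0 in all 3 siIQGAP3 libraries. It was at least 5407-fold higher in siIGF2BP1, taking a floor of 3 counts over the siIQGAP3 group. The siControl libraries held 171, 206 and 0 CPM, so the gene was present in libraries 1 and 2 and without a count in library 3. HOTTIP, the long non-coding RNA from the distal end of the HOXA cluster whose promoter is printed above, was at 132, 131 and 147 CPM in siIGF2BP1 and 0 in all 3 siIQGAP3 libraries and was at least 4979-fold higher, with the doubt that its reads cannot be told from those of overlapping transcripts. PPP1R3A, a muscle glycogen-targeting subunit of protein phosphatase 1, was at 59.7, 56.7 and 69.5 CPM in siIGF2BP1 and 0 in all 3 siIQGAP3 libraries and at least 2260.3-fold higher. HOTTIP and PPP1R3A were both at or near 0 in siControl library 3. Lack of overlap between the groups was a condition for choosing the 12 largest increases and decreases, so it is no result about them.

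LHX9, a LIM homeobox gene of gonad, limb and brain development, was at 402, 365 and 476 CPM in siIGF2BP1 and 0.0271, 0.0283 and 0.0271 CPM in siIQGAP3, 1 count in each siIQGAP3 library. Its summed level was 15123 times (95% interval 5175 to 73336) that of siIQGAP3, an interval that covers counting error only, as do all such intervals and floors here. PRAME, a melanoma antigen gene, was at 106, 115 and 89.4 CPM in siIGF2BP1 and 0.0271, 0 and 0 CPM in siIQGAP3. MAGEA1, MAGEA10 and MAGEA11 had no count in siIQGAP3 and were at least 889-fold, at least 1295-fold and at least 1145-fold higher. MAGEA4, another gene of this X-linked antigen family, was at 65.4, 62.9 and 60.00 CPM in siIGF2BP1 and 0.0271, 0 and 0 CPM in siIQGAP3. MAGEA3 was at 49.7, 49.3 and 52.5 CPM in siIGF2BP1 and 0, 0 and 0.0271 CPM in siIQGAP3. The MAGEA genes are near-identical copies, and how reads were split between MAGEA3, MAGEA6 and their relatives is uncertain. PCDH10, a protocadherin of cell contacts, was at 17.6, 18.2 and 8.87 CPM in siIGF2BP1 and 0 in all 3 siIQGAP3 libraries. CHMP4C, a subunit of the membrane-cutting ESCRT-III complex, was at 13, 12.1 and 15.5 CPM in siIGF2BP1 and 0 in all 3 siIQGAP3 libraries. All of these genes were present in siControl libraries 1 and 2 and at or below 0.05 CPM in siControl library 3.

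The largest decreases held genes of pluripotent and early germ cells beside muscle and forebrain genes. DPPA3, a maternal and germ cell factor that shields methylated DNA, was at 0.0248, 0.0249 and 0 CPM in siIGF2BP1 and 7.26, 7.17 and 7.58 CPM in siIQGAP3. Only 2 counts stood in siIGF2BP1, so the summed level in siIQGAP3 was 453 times (95% interval 125 to 3751) that of siIGF2BP1. PRDM14, a repressor that keeps pluripotent cells from differentiating, was at 1.16, 0.821 and 1.7 CPM in siIGF2BP1 and 64.1, 62.1 and 62.1 CPM in siIQGAP3, with a log2 fold change of -5.67 ± 0.25 (adjusted p = 1.20e-05). TNFRSF8, which encodes the CD30 antigen that marks embryonal carcinoma, was at 0.916, 0.946 and 0.465 CPM in siIGF2BP1 and 43.8, 42.9 and 41.4 CPM in siIQGAP3, at -5.78 ± 0.26 (adjusted p = 1.23e-05) on the log2 scale. For these 3 genes lack of overlap between the groups was a condition of the choice. TM4SF18, a gene of the L6 membrane protein family, was at 0.0248, 0.0249 and 0.116 CPM in siIGF2BP1 and 12.1, 10.7 and 11.5 CPM in siIQGAP3. HHLA1, a gene that neighbours a HERV-H element, was at 0.718, 0.896 and 1.02 CPM in siIGF2BP1 and 58.4, 56.4 and 59.9 CPM in siIQGAP3.

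Contractile genes among the largest decreases were MYL1, a fast muscle myosin light chain, at 0.0495, 0.0498 and 0.14 CPM in siIGF2BP1 and 7.96, 8.7 and 10.7 CPM in siIQGAP3. ACTC1, the cardiac actin, was at 0.619, 0.448 and 1.16 CPM in siIGF2BP1 and 42.6, 45.3 and 45.7 CPM in siIQGAP3. SORBS2, an adaptor of actin fibres and muscle Z-discs, was at 0.322, 0.348 and 1.09 CPM in siIGF2BP1 and 32.4, 29.8 and 33.2 CPM in siIQGAP3. That all 3 were lower in each siIGF2BP1 library than in any siIQGAP3 library was a condition of the choice. FEZF1, a zinc finger repressor of the early forebrain, was at 0.173, 0.149 and 0.0465 CPM in siIGF2BP1 and 8.75, 9.5 and 9.64 CPM in siIQGAP3. Its relative FEZF2 was at 0.173, 0.149 and 0.0465 CPM in siIGF2BP1 and 8.58, 8.79 and 9.07 CPM in siIQGAP3. For this pair too it was a condition that the groups did not overlap. PPP1R17, an inhibitor of protein phosphatases, was at 0.124, 0.124 and 0.0233 CPM in siIGF2BP1 and 8.96, 9.47 and 8.91 CPM in siIQGAP3. DIO2, which activates thyroid hormone, was at 0.0495, 0.0746 and 0.279 CPM in siIGF2BP1 and 8.96, 8.13 and 9.13 CPM in siIQGAP3. Some of the 12 were low in all siControl libraries too: FEZF1 was at 0, 0 and 0.0857 CPM, FEZF2 at 0.254, 0.296 and 0.0429 CPM, PPP1R17 at 0, 0 and 0.472 CPM, DIO2 at 1.12, 0.62 and 0.407 CPM and DPPA3 at 0.229, 0.027 and 0.343 CPM. So were TM4SF18, at 0.178, 0.0539 and 0.665 CPM, and MYL1, at 0.331, 0.189 and 0.986 CPM. Others were further above siIGF2BP1 in every siControl library, with PRDM14 at 26.4, 15.9 and 39.2 CPM, HHLA1 at 10.9, 7.12 and 18.9 CPM, ACTC1 at 10.7, 6.28 and 17.1 CPM and TNFRSF8 at 4.2, 2.18 and 7.31 CPM. SORBS2 was above siIGF2BP1 in siControl library 3 alone (0.661, 0.35 and 7.16 CPM).

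**Figure D2:**
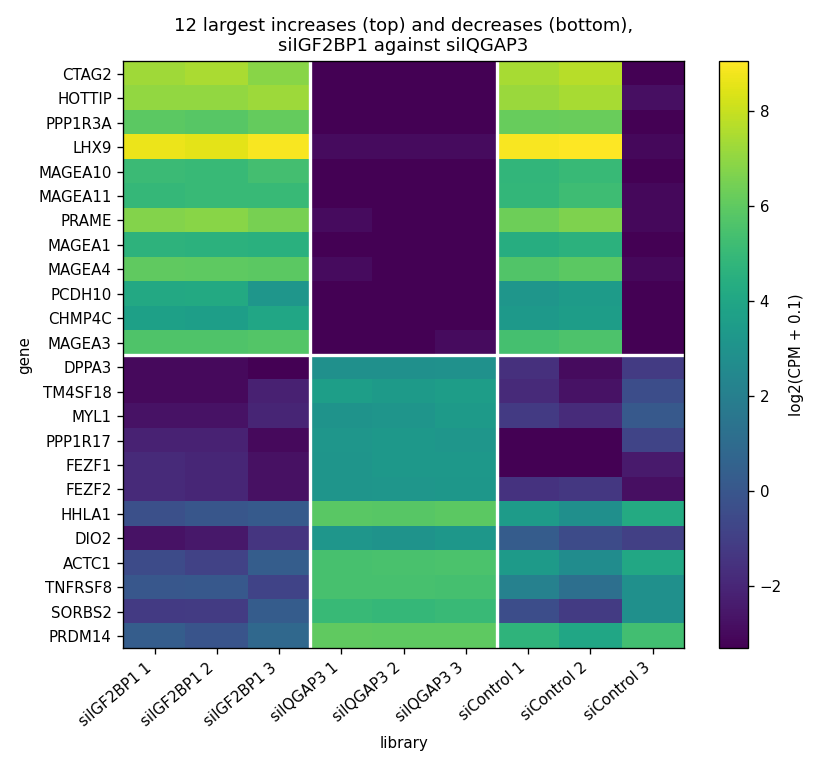
Level of the 12 genes with the largest increases (top) and the 12 with the largest decreases (bottom) in siIGF2BP1 against siIQGAP3, by library, as log2(CPM + 0.1) in colour. In the upper block the siIQGAP3 libraries and siControl library 3 are dark together (CTAG2 at 0 CPM in all 4). In the lower block FEZF1, FEZF2, PPP1R17, DIO2, DPPA3, TM4SF18 and MYL1 are bright only in siIQGAP3.

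Genes present in 1 group and absent from the other were almost all on 1 side. At thresholds chosen after the values were seen, 54 genes were at 5 CPM or more in every siIGF2BP1 library and at 0.1 CPM or less in every siIQGAP3 library, and 1 gene, DPPA3, showed the reverse. Of the 54 genes, 53 were also at 5 CPM or more in siControl library 1 and 53 in library 2, 0 in library 3, and 43 were at 0.1 CPM or less there. Besides the antigen genes they included HOXA11, HOXA13, HOXC10 and HOXC11 and the HOX transcript HOTAIR. Of the 54 genes, 33 had a promoter entry. Their median was 11 CG pairs beside 20 for all tested genes, and ATGCAAA was in 4 of them (12.1%, beside 2.89%), values that describe a set chosen by level and carry no test.

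The cancer-testis list showed the same side. Of 25 entries 9 were tested, of which 9 were higher and 0 lower, with a summed level of 465 to 550.3 CPM in siIGF2BP1, 0 to 0.0813 CPM in siIQGAP3 and 465, 554 and 0.0857 CPM in siControl libraries 1, 2 and 3. The other 16 entries had too few counts in the 6 libraries to be tested, and a gene without counts in siIQGAP3 passes the filter only by its level in siIGF2BP1, so the count of 9 supports nothing. MAGEA6 was at 47.4, 43.9 and 49 CPM in siIGF2BP1 and 0, 0 and 0.0271 CPM in siIQGAP3, a level given with the doubt about near-identical copies stated above.

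Pluripotency genes were lower in siIGF2BP1. Of 30 entries 29 were tested, of which 2 were higher and 25 lower (beside 36.3% and 32.3% of all genes), and the median log2 fold change was -3.09 beside 0.04. Their summed level was 506 to 798 CPM in siIGF2BP1, 5659 to 5695 CPM in siIQGAP3, and 2673, 2213 and 4712 CPM in siControl libraries 1, 2 and 3. ESRG, a HERV-H derived transcript of human pluripotent cells, was at 53.9, 64.7 and 64.1 CPM in siIGF2BP1 and 956, 978 and 986 CPM in siIQGAP3, a log2 fold change of -4.0 ± 0.10 (adjusted p = 2.58e-06). SALL4, a zinc finger partner of POU5F1, was at 12.2, 15.3 and 14.5 CPM in siIGF2BP1 and 159, 149 and 156 CPM in siIQGAP3. DNMT3B, the de novo DNA methyltransferase of the early embryo, was at 69.2, 69.5 and 52.1 CPM in siIGF2BP1 and 550.1, 528 and 543 CPM in siIQGAP3. Every siIGF2BP1 library lay below every siIQGAP3 library for these 3 genes, which follows largely from their choice by p-value. LIN28B, which blocks let-7 processing and is also a reported IGF2BP1 client, was at 25.9, 26.7 and 26.5 CPM in siIGF2BP1 and 117, 105 and 115 CPM in siIQGAP3, a log2 fold change of -2.09 ± 0.07 (adjusted p = 4.99e-06). In siControl, LIN28B was at 31.2, 20.00 and 74.9 CPM and SALL4 at 50.2, 30.2 and 141 CPM, so that libraries 1 and 2 lay nearer to siIGF2BP1 than library 3 did.

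The core factors, chosen after their values were seen, did not all differ by a like amount. Log2 fold changes were -3.66 ± 0.37 for LIN28A, -2.92 ± 0.48 for SOX2, -1.37 ± 0.20 for NANOG and -0.42 ± 0.11 for POU5F1, each past the test. NANOG and POU5F1 have processed copies in the genome, and both are among the genes on which the deposited tables disagree. KLF4 and ESRRB were the 2 members of the list that were higher, with log2 fold changes of 1.16 ± 0.09 and 2.17 ± 0.72. TERT, at -1.06 ± 0.49, and TFCP2L1, at 0.09 ± 0.19, were not called. As a check of the labelled cell type, its defining transcripts were counted in both groups, with SOX2 at 37.8 ± 20.9 against 285 ± 5.74 CPM, POU5F1 at 44 ± 6.37 against 58.9 ± 1.46 CPM and LIN28A at 119 ± 51.8 against 1498 ± 30.6 CPM (mean ± SD, n = 3 each). The siControl libraries held far more POU5F1, at 905, 867 and 714 CPM. NANOG was at 3.29, 3.58 and 2.23 CPM in siIGF2BP1 and 7.99, 7.79 and 7.75 CPM in siIQGAP3, beside 79.9, 99.4 and 69.8 CPM in siControl. KLF4, at 19.2, 20.1 and 19.99 CPM in siIGF2BP1 and 8.94, 9.01 and 8.67 CPM in siIQGAP3, was likewise below the siControl libraries, at 233, 267 and 138 CPM. For these 3 genes both groups thus lay below all siControl libraries, library 3 included, and the difference between the groups was smaller than that gap.

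Of 16 germ cell entries 14 were tested, of which 2 were higher and 8 lower, with a median of -2.42. TFAP2C, a transcription factor of germ cell precursors, was at 8.67, 7.19 and 7.12 CPM in siIGF2BP1 and 46.5, 45.7 and 46.6 CPM in siIQGAP3. ALPL, the tissue-nonspecific alkaline phosphatase, was at 18.2, 23.1 and 13.9 CPM in siIGF2BP1 and 99.4, 108 and 104 CPM in siIQGAP3. Both were lower in every siIGF2BP1 library. DND1, an RNA-binding protein of germ cells, was higher, at 21, 22.6 and 16.1 CPM in siIGF2BP1 and 9.02, 8.96 and 10.3 CPM in siIQGAP3.

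All 12 DNA methylation entries were tested, of which 4 were higher and 4 lower, close to the background. TDG, the glycosylase that removes oxidised methylcytosine, was lower (-1.41 ± 0.09), and the methyl-CpG reader MBD2 was higher (1.28 ± 0.06). Of 22 imprinted genes 20 were tested, of which 2 were higher and 14 lower, with a median of -1.43. DLK1, a paternally expressed Notch-like ligand, was at 1.31, 1.77 and 2.26 CPM in siIGF2BP1 and 24.5, 29.6 and 24.9 CPM in siIQGAP3. CDKN1C, a growth-limiting cell cycle inhibitor, was at 8.69, 10.5 and 9.45 CPM in siIGF2BP1 and 25.9, 29.8 and 27.4 CPM in siIQGAP3. Both were lower in each siIGF2BP1 library. GNAS, the stimulatory G protein subunit, was at 461, 499.6 and 372 CPM in siIGF2BP1 and 1259, 1346 and 1319 CPM in siIQGAP3. PLAGL1, a zinc finger factor, was at 16.5, 18.4 and 21.2 CPM in siIGF2BP1 and 48.7, 48.6 and 51.9 CPM in siIQGAP3. None of these 4 overlapped between the groups, and PLAGL1 missed the threshold when all 15 libraries shared 1 fit (adjusted p = 0.0514).

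HOX genes, which give cells their position along the body axis, were higher in siIGF2BP1 almost throughout. All 39 were tested, 37 were higher and 1 was lower, with a median log2 fold change of 3.36. Their summed level was 834 to 1022 CPM in siIGF2BP1, 94.2 to 95.5 CPM in siIQGAP3, and 650.3, 754 and 186 CPM in siControl libraries 1, 2 and 3. HOXA13 was at 126, 124 and 135 CPM in siIGF2BP1 and 0.0542, 0.0567 and 0.0813 CPM in siIQGAP3, a log2 fold change of 10.89 ± 0.13 (adjusted p = 1.33e-06). Only 7 counts of HOXA13 stood in siIQGAP3, so that SE is too small. HOXC10 was at 87.6, 93.9 and 79.2 CPM in siIGF2BP1 and 0, 0 and 0.0542 CPM in siIQGAP3, a summed level 4731 times (95% interval 1309 to 39068) that of siIQGAP3. Neither gene overlapped between the groups. HOXA11 was at 56.4, 56.7 and 51.6 CPM in siIGF2BP1 and 0.0542, 0 and 0.0542 CPM in siIQGAP3. HOXB13 was at 33.6, 33.3 and 32.1 CPM in siIGF2BP1 and 0.569, 0.624 and 0.813 CPM in siIQGAP3. The siIGF2BP1 libraries of these 4 genes were far above the siIQGAP3 libraries, and siControl library 3 was again at the siIQGAP3 side, with HOXA13 at 129, 133 and 0.107 CPM in siControl libraries 1, 2 and 3.

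The differences were larger towards the later paralog groups in HOXA, HOXB and HOXC. The 12 tested genes of paralog groups 1 to 4, which pattern the hindbrain and neck, had a median of 1.34, with 10 higher. The 11 of groups 5 to 8 had a median of 3.73, and the 16 of groups 9 to 13, which pattern the trunk end and limbs, a median of 6.27, with all 11 and all 16 higher. By cluster the medians were 1.81 for HOXA (11 genes), 3.93 for HOXB (10), 4.72 for HOXC (9) and 2.56 for HOXD (9). HOXB1, at -1.55 ± 0.49, was the 1 gene that was lower, and HOXD1, at -0.17 ± 0.29, was not called. Genes of a cluster overlap with antisense transcripts and the strand setting of the counting is not known, so reads of HOXA11 and its antisense partner cannot be told apart. With all 15 libraries in 1 fit 30 of the HOX genes were higher and 0 lower.

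**Figure D3:**
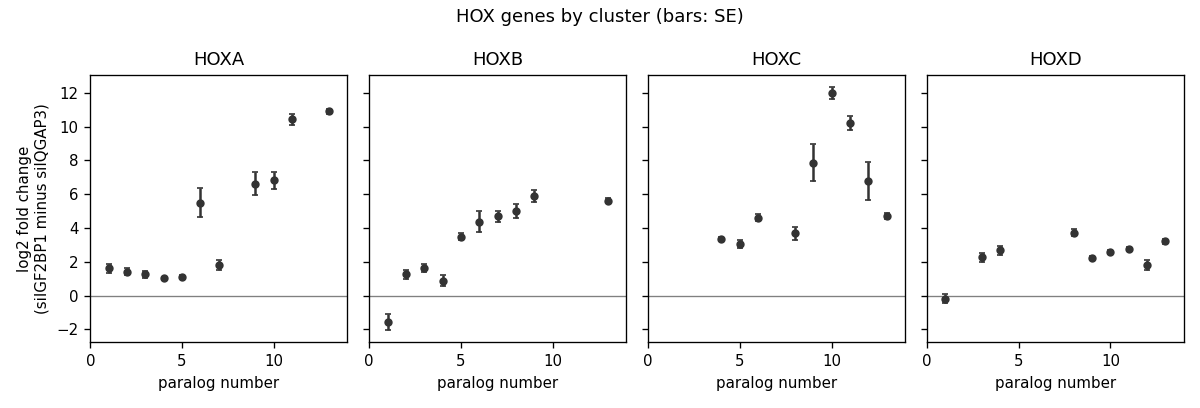
Log2 fold change (siIGF2BP1 minus siIQGAP3) of the 39 tested HOX genes, by cluster, against paralog number, with bars of 1 approximate SE. The bars are too short where siIQGAP3 holds only a few counts, as for HOXC10 (2 counts) and HOXA13 (7 counts). Values are larger at high paralog numbers in HOXA (1.02 for HOXA4, 10.89 for HOXA13) and HOXB, peak at 11.98 for HOXC10 in HOXC, and stay in HOXD between -0.17 and 3.73.

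Mesoderm and limb bud genes were mostly higher. Of 24 entries 22 were tested, of which 16 were higher and 4 lower, with a median of 2.68 and a summed level of 1261 to 1483 CPM in siIGF2BP1, 179 to 185 CPM in siIQGAP3. In siControl libraries 1, 2 and 3 the sum was 1392, 1495 and 170 CPM. Library 3 lay nearer to siIQGAP3 for 16 of the 22 genes and nearer to siIGF2BP1 for 6. TWIST1, a factor of mesenchyme, was at 454, 461 and 636 CPM in siIGF2BP1 and 6.72, 6.83 and 7.26 CPM in siIQGAP3, a log2 fold change of 6.22 ± 0.18 (adjusted p = 3.61e-06). PITX1, a hindlimb factor, was at 99.7, 101 and 79.99 CPM in siIGF2BP1 and 2.52, 2.64 and 2.55 CPM in siIQGAP3. TBX3, a T-box repressor of limb and heart, was at 94.1, 95 and 75 CPM in siIGF2BP1 and 16.4, 16 and 16.4 CPM in siIQGAP3 and, at 84.3, 72 and 79.4 CPM, was high in siControl library 3 too. FOXC2, MIXL1, TBX15 and TBX18 were the 4 members that were lower.

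Fibroblast genes, tested as markers of another cell type, moved with these groups. All 12 entries were tested, of which 7 were higher and 3 lower, with a median of 1.90 and a summed level of 5091 to 10755 CPM in siIGF2BP1, 3158 to 3206 CPM in siIQGAP3, and 5 were lower without siIGF2BP1 library 3. DCN, the matrix proteoglycan decorin, was at 206, 193 and 335 CPM in siIGF2BP1 and 0.542, 0.198 and 0.488 CPM in siIQGAP3. PDGFRA, a growth factor receptor of mesenchyme, was at 75.8, 71.7 and 79.9 CPM in siIGF2BP1 and 12, 11 and 9.94 CPM in siIQGAP3. DPT, the matrix protein dermatopontin, was at 8.62, 8.26 and 7.91 CPM in siIGF2BP1 and 0, 0.0283 and 0.0271 CPM in siIQGAP3, a summed level 450.5 times (95% interval 124 to 3725) that of siIQGAP3. These 3 genes did not overlap between the groups. MMP2, a gelatinase, was lower, at 171, 189.9 and 191 CPM in siIGF2BP1 and 486, 485 and 483 CPM in siIQGAP3. In siControl DCN was at 237, 273 and 0 CPM. The part of such cells in the other differences was not tested, and in bulk RNA fewer cells of a type and less RNA per cell cannot be told apart. All 31 mesenchymal and matrix genes were tested, of which 13 were higher and 13 lower, and the median of 0.33 changed sign to -0.48 without siIGF2BP1 library 3, with 17 lower. COL3A1 was at 2390.5, 2318 and 3993 CPM in siIGF2BP1 and 119.8, 116 and 121 CPM in siIQGAP3. POSTN, which encodes periostin, was at 266, 257 and 351 CPM in siIGF2BP1 and 15.6, 16.4 and 17.3 CPM in siIQGAP3. COL9A3, a cartilage collagen, was at 126, 135 and 162 CPM in siIGF2BP1 and 56.6, 60.9 and 59 CPM in siIQGAP3. Of the 13 lower members, chosen after their values were seen, the cadherin gene CDH11 (-4.79 ± 0.63) and the basement membrane collagen gene COL4A1 (-3.32 ± 0.34) differed most. Of 16 endothelial and blood entries 11 were tested, of which 2 were higher and 7 lower, led by TEK, the angiopoietin receptor, at 4.7, 4.16 and 3.49 CPM in siIGF2BP1 and 62, 56.3 and 59.4 CPM in siIQGAP3, and the VEGF receptors FLT1 (-3.23 ± 0.26) and KDR (-3.19 ± 0.27), with CD34 at -2.28 ± 0.24. The 2 that were higher were HBE1, the embryonic globin, at 0.817, 0.722 and 0.908 CPM in siIGF2BP1 and 0 in all 3 siIQGAP3 libraries, and the transcription factor ERG (1.35 ± 0.20).

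Neural and endoderm genes split. Of 26 neural and eye field entries 23 were tested, of which 10 were higher and 9 lower. PAX6, the eye and forebrain factor, was at 30.03, 30.8 and 33.2 CPM in siIGF2BP1 and 3.57, 3.85 and 3.6 CPM in siIQGAP3. TUBB3, the neuronal tubulin, was lower, at 74.8, 77.9 and 90.3 CPM in siIGF2BP1 and 325, 346 and 345 CPM in siIQGAP3. Of 17 endoderm entries 10 were tested, of which 4 were higher and 5 lower, with GATA6 (1.82 ± 0.10), HHEX (6.69 ± 0.42) and FOXA1 (5.21 ± 0.38) higher and CER1, a secreted Nodal and BMP antagonist, lower at 0.0248, 0.0249 and 0 CPM in siIGF2BP1 and 1.49, 1.13 and 1.19 CPM in siIQGAP3. SOX17, TTR and ALB were among the 7 endoderm entries with too few counts to test. Of 16 trophoblast entries 8 were tested, of which 4 were higher and 3 lower. TFAP2A, an ectoderm and trophoblast factor, was at 138, 144 and 137 CPM in siIGF2BP1 and 4.36, 5.24 and 5.5 CPM in siIQGAP3, CDX2 was higher (5.52 ± 0.51), and GATA3 (-2.0 ± 0.19) and TEAD4 (-0.79 ± 0.07) were lower.

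Genes of the retinoic acid pathway were higher on balance. Of 20 entries 19 were tested, of which 13 were higher and 3 lower, with a median of 0.99, and 8 were higher with all 15 libraries in 1 fit. The receptor gene RARG was at 217, 235 and 271 CPM in siIGF2BP1 and 43.3, 48 and 45.4 CPM in siIQGAP3. RARB, a receptor that retinoic acid itself induces, was at 24.6, 27.5 and 21.2 CPM in siIGF2BP1 and 5.23, 4.76 and 4.85 CPM in siIQGAP3. Both receptors were higher in each siIGF2BP1 library. STRA6, the retinol uptake receptor, was at 112, 118 and 117 CPM in siIGF2BP1 and 58, 59.9 and 57.1 CPM in siIQGAP3, and missed the threshold in the 15-library fit (adjusted p = 0.163). CRABP1, a cytoplasmic retinoic acid carrier, was lower, at 13.2, 16.6 and 19.7 CPM in siIGF2BP1 and 88, 95.1 and 89.1 CPM in siIQGAP3. The 4 genes did not overlap between the groups, and in siControl library 3 RARG was at 11.4 CPM, below siIQGAP3.

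FGF and ERK genes were mostly lower. FGF ligands act through FGF receptors and ERK kinases, which switch on their own inhibitors, such as the DUSP phosphatases. All 23 entries were tested, of which 3 were higher and 19 lower, with a median of -1.63 and a summed level of 660.1 to 795 CPM in siIGF2BP1, 1901 to 1939 CPM in siIQGAP3. In siControl libraries 1, 2 and 3 the sum was 1165, 996 and 1823 CPM. Library 3 lay nearer to siIQGAP3 for 16 of the 23 genes and nearer to siIGF2BP1 for 7. Of the ligands, FGF2 was at 7.68, 6.77 and 6.35 CPM in siIGF2BP1 and 59.7, 57.7 and 57.4 CPM in siIQGAP3, a log2 fold change of -3.07 ± 0.10 (adjusted p = 4.59e-06). Among receptors, FGFR4 was higher, at 143, 141 and 126 CPM in siIGF2BP1 and 38.3, 42.2 and 39.2 CPM in siIQGAP3. Of the ERK phosphatases, DUSP6 was at 14.8, 15.4 and 15.3 CPM in siIGF2BP1 and 95.1, 96.4 and 93.8 CPM in siIQGAP3. DUSP4 was at 4.33, 4.43 and 5.21 CPM in siIGF2BP1 and 61.5, 63.5 and 62 CPM in siIQGAP3. Both were lower in every siIGF2BP1 library. DUSP6 was still lower in the siControl libraries (4.83, 3.69 and 3.84 CPM), as was DUSP4 (1.4, 1.46 and 3.15 CPM), so that on this gene pair siIQGAP3 stood above all other libraries shown and siControl library 3 was not on its side.

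Nodal and TGF-beta genes were lower on balance. Of 23 entries 22 were tested, of which 3 were higher and 13 lower, with a median of -1.39. TDGF1, the Nodal co-receptor and pluripotency marker Cripto, was at 10.1, 7.96 and 4.89 CPM in siIGF2BP1 and 152, 155 and 154 CPM in siIQGAP3. FST, an activin-binding inhibitor, was at 3.42, 3.31 and 2.19 CPM in siIGF2BP1 and 60.4, 69.6 and 61.9 CPM in siIQGAP3. Both were lower in every siIGF2BP1 library. The ligand TGFB1 was higher, at 164, 179.6 and 212 CPM in siIGF2BP1 and 64.3, 69.1 and 63 CPM in siIQGAP3, and so was the inhibin subunit gene INHBE (5.9 ± 0.29). All 22 BMP entries were tested, of which 13 were higher and 4 lower, and 7 were higher in the 15-library fit. The ligand BMP5 was at 35.1, 32.1 and 80.8 CPM in siIGF2BP1 and 0.0542, 0.142 and 0.0813 CPM in siIQGAP3. The transducer SMAD9 was at 31.9, 29.9 and 32.4 CPM in siIGF2BP1 and 4.98, 5.3 and 4.71 CPM in siIQGAP3. The BMP target gene MSX1 was at 56.2, 57.5 and 47.4 CPM in siIGF2BP1 and 4.44, 5.07 and 5.28 CPM in siIQGAP3. All 3 were above siIQGAP3 in each siIGF2BP1 library, and the target gene MSX2 was higher too (3.34 ± 0.19).

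Of 31 WNT entries 30 were tested, of which 17 were higher and 9 lower, with a median of 1.21. The ligand WNT6 was at 28.1, 25.3 and 23.6 CPM in siIGF2BP1 and 0.298, 0.17 and 0.108 CPM in siIQGAP3. The nuclear factor LEF1 was at 122, 119.6 and 101 CPM in siIGF2BP1 and 24.6, 26.1 and 25.7 CPM in siIQGAP3. NOTUM, a secreted inhibitor of WNT, was at 84.1, 91.4 and 70.2 CPM in siIGF2BP1 and 1.46, 2.18 and 1.49 CPM in siIQGAP3. These 3 did not overlap between the groups, and the nuclear factor TCF7 was higher too (2.48 ± 0.09). In siControl NOTUM was at 106, 115 and 58.2 CPM and LEF1 at 101, 114 and 9.65 CPM, and library 3 lay nearer to siIGF2BP1 for 19 of the 30 WNT genes. Of the 9 lower members, chosen after their values were seen, the secreted WNT antagonists SFRP2 (-3.7 ± 0.33) and SFRP1 (-3.41 ± 0.22) differed most. All 19 Notch entries were tested, of which 11 were higher and 4 lower. The ligand JAG2 was at 187, 195 and 192 CPM in siIGF2BP1 and 15.7, 16.6 and 15.8 CPM in siIQGAP3. The target HEYL was at 10.03, 9.18 and 10.7 CPM in siIGF2BP1 and 0.542, 0.454 and 0.352 CPM in siIQGAP3. The ligand DLL4 was higher (6.32 ± 0.28, on 5 counts in siIQGAP3), and LFNG, which modifies Notch receptors with sugar, was lower (-2.3 ± 0.09). HEYL was as high in siControl library 3 (11 CPM) as in libraries 1 and 2 (11.1 and 12 CPM), and only siIQGAP3 was low. Most Notch genes differed from HEYL in this. Of the 19 tested, 13 had a level in siControl library 3 closer to siIQGAP3, and 6 had one closer to siIGF2BP1.

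Actin cytoskeleton genes that SRF regulates were mostly lower in siIGF2BP1. Of 34 entries 33 were tested, of which 2 were higher and 27 lower, with a median of -1.04 and a summed level of 13609 to 14363 CPM in siIGF2BP1, 29225 to 29979 CPM in siIQGAP3. Of siControl, libraries 1 and 2 held 17860.5 and 17658.8 CPM and library 3 30064.0 CPM. TPM3, a tropomyosin, was at 394, 400.0 and 379 CPM in siIGF2BP1 and 969, 977 and 989 CPM in siIQGAP3. CNN3, a calponin, was at 186, 181 and 169 CPM in siIGF2BP1 and 401, 403 and 420.2 CPM in siIQGAP3. TAGLN2, a transgelin, was at 331, 379.7 and 307 CPM in siIGF2BP1 and 1046, 1087 and 1048 CPM in siIQGAP3. None overlapped between the groups. TPM4 and CFL2 were the 2 members that were higher (0.39 ± 0.07 and 0.72 ± 0.07). Immediate early genes, the other class of SRF targets, showed the opposite balance of calls. All 20 members were tested, of which 13 were higher and 3 lower, with a median of 1.22. Their summed levels overlapped between the groups, at 1249 to 2386 CPM in siIGF2BP1 and 1233 to 1252 CPM in siIQGAP3. In siControl libraries 1, 2 and 3 the sum was 2718, 3036 and 1218 CPM. JUNB was at 247, 256 and 118 CPM in siIGF2BP1 and 30.6, 32.3 and 30.4 CPM in siIQGAP3, beside 286, 340 and 39.4 CPM in siControl. KLF2 was at 17.6, 16.7 and 25.3 CPM in siIGF2BP1 and 2.41, 2.98 and 2.65 CPM in siIQGAP3. ZFP36, which promotes decay of AU-rich mRNAs, was at 13, 14.8 and 13.8 CPM in siIGF2BP1 and 5.98, 6.6 and 5.25 CPM in siIQGAP3, while MCL1, a survival factor, was lower (-1.16 ± 0.06).

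All 18 YAP and TEAD targets were tested, of which 1 was higher and 10 lower, and without siIGF2BP1 library 3 it was 2 and 14. CCN1, a matrix signalling protein, was at 46.9, 50.1 and 47.4 CPM in siIGF2BP1 and 171, 172 and 177 CPM in siIQGAP3. NUAK2, a kinase, was at 8.07, 8.93 and 11.3 CPM in siIGF2BP1 and 65.8, 64.7 and 63.6 CPM in siIQGAP3. F3, tissue factor, was at 4.16, 4.43 and 5.84 CPM in siIGF2BP1 and 19, 19 and 19.2 CPM in siIQGAP3. All 16 integrin genes were tested, of which 4 were higher and 10 lower. ITGA6, a laminin receptor chain, was at 38.5, 36.6 and 38.7 CPM in siIGF2BP1 and 113, 105 and 106 CPM in siIQGAP3, ITGA7 and ITGB5 were lower too (-1.55 ± 0.13 and -1.53 ± 0.13), and ITGB4 was higher (1.85 ± 0.16). Of 26 epithelial genes 25 were tested, of which 4 were higher and 12 lower, and 19 were lower without siIGF2BP1 library 3. EPCAM, an adhesion protein of epithelial and pluripotent cells, was at 6.09, 7.02 and 11 CPM in siIGF2BP1 and 70.7, 73.2 and 78 CPM in siIQGAP3, and RAB25, a vesicle GTPase, was lower (-2.73 ± 0.28). CLDN7, a claudin, and GRHL1, an epithelial transcription factor, were higher (2.5 ± 0.14 and 3.23 ± 0.23). All 35 axon guidance genes were tested, of which 16 were higher and 11 lower. The repellent SLIT2 was at 108, 108 and 95.4 CPM in siIGF2BP1 and 21.2, 18.1 and 20.04 CPM in siIQGAP3. The netrin receptor UNC5C was at 49.7, 44.5 and 58.7 CPM in siIGF2BP1 and 2.0, 2.18 and 1.27 CPM in siIQGAP3 and the semaphorin SEMA3F was higher (1.72 ± 0.10), while the ephrin receptor EPHA1 was lower, at 5.45, 5.35 and 4.47 CPM in siIGF2BP1 and 95.5, 99.97 and 94.3 CPM in siIQGAP3.

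The mRNAs reported as IGF2BP1 clients were lower on balance in siIGF2BP1 than in siIQGAP3. All 29 entries were tested, of which 4 were higher and 17 lower, with a median of -0.79 and a summed level of 7584 to 8038 CPM in siIGF2BP1, 18330.4 to 18522 CPM in siIQGAP3. In siControl libraries 1, 2 and 3, which received no IGF2BP1 siRNA, the sum was 11251, 11316 and 16935 CPM, and libraries 1 and 2 lay nearer to siIGF2BP1 for 19 of the 29 clients each. SRF, FOXM1 and LIN28B, described above, are on this list. USP44, a deubiquitinase, was at 8.84, 8.48 and 5.98 CPM in siIGF2BP1 and 125, 122 and 126 CPM in siIQGAP3, and LEF1 was 1 of the 4 members that were higher. MYC, the best-known client, chosen after its value was seen, was at 63.2, 65.7 and 42.1 CPM in siIGF2BP1 and 57.7, 58 and 59.8 CPM in siIQGAP3. Its groups overlapped, and its log2 fold change of -0.04 ± 0.17 was not called (adjusted p = 0.856 by edgeR). Both groups lay below every siControl library, at 744, 882 and 493 CPM, and MYC is another gene on which the deposited tables disagree. It lies just beyond the chromosome 8 stretch described below. Without siIGF2BP1 library 3, where 86% of all tested genes were called, 7 clients were higher and 22 lower.

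All 16 paralogs and partners of the 2 targets were tested, of which 3 were higher and 12 lower. The paralog IGF2BP2 was at 83.9, 81.1 and 108 CPM in siIGF2BP1 and 215, 216 and 224 CPM in siIQGAP3 and the paralog IGF2BP3 was lower (-0.85 ± 0.22). Among proteins found with IGF2BP1 in particles, DHX9, a helicase, was at 301, 298 and 298 CPM in siIGF2BP1 and 680.1, 647 and 684 CPM in siIQGAP3. HNRNPU was at 729, 745 and 678 CPM in siIGF2BP1 and 1334, 1352 and 1377 CPM in siIQGAP3. SYNCRIP was at 197, 197 and 197 CPM in siIGF2BP1 and 284, 289.6 and 293 CPM in siIQGAP3. Of the IQGAP paralogs, IQGAP1 was lower (-0.89 ± 0.13) and IQGAP2 higher (1.25 ± 0.17). IGF2BP3, IQGAP1 and IQGAP2 were chosen after their values were seen.

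**Figure D4:**
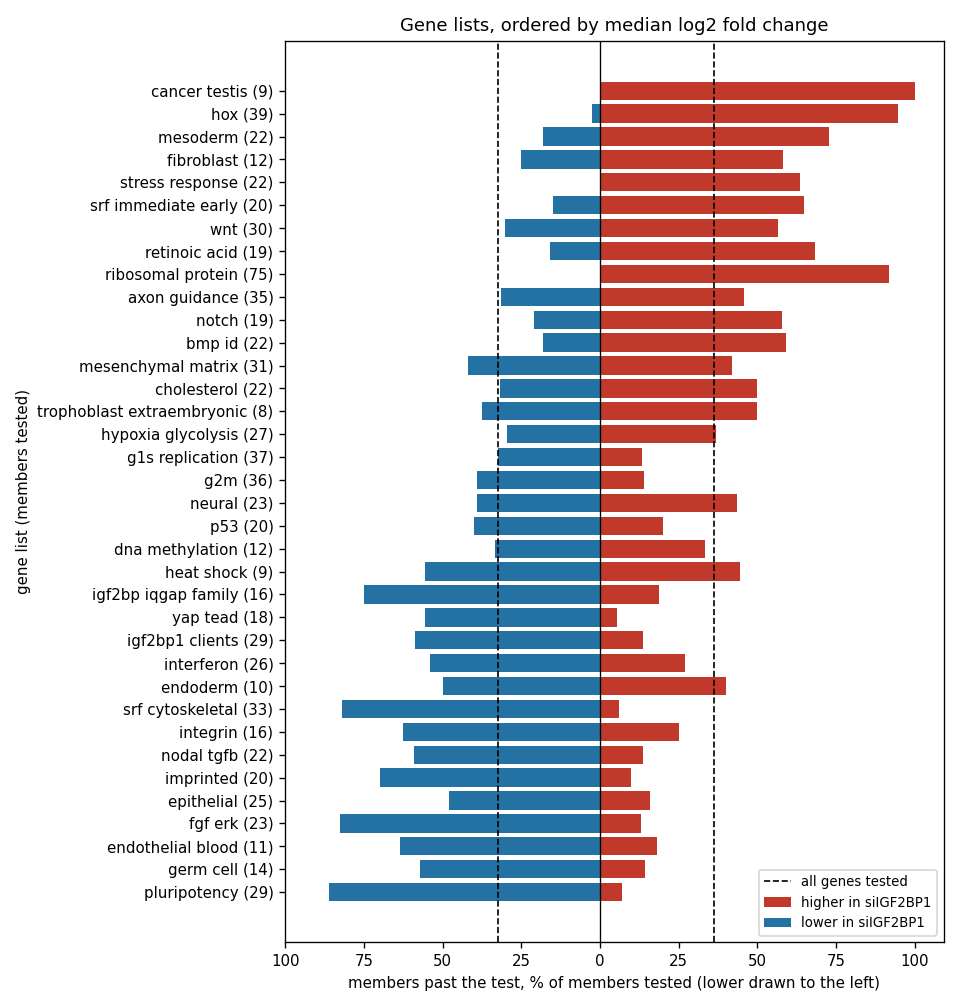
Share of the tested members of each of 36 gene lists called higher (right) or lower (left) in siIGF2BP1 than in siIQGAP3, ordered by median log2 fold change, with the number of members tested in brackets and dashed lines at the shares of all genes tested (36.3% and 32.3%). Cancer-testis, HOX and mesoderm lists stand at the top, and pluripotency, germ cell, endothelial and FGF and ERK lists at the bottom. The cancer-testis bar supports nothing, because a member without counts in siIQGAP3 passes the filter only by its level in siIGF2BP1.

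Ribosomal protein and stress genes were mostly higher. All 75 cytosolic ribosomal protein genes were tested, of which 69 were higher and 0 lower, with a median of 0.80 (2 were lower without siIGF2BP1 library 3) and a summed level of 78881 to 94019.5 CPM in siIGF2BP1, 45523 to 49024 CPM in siIQGAP3. RPL10, of the large subunit, was at 2877, 2931 and 2461 CPM in siIGF2BP1 and 725, 750.0 and 763 CPM in siIQGAP3. RPS28, of the small subunit, was at 729.7, 786 and 754 CPM in siIGF2BP1 and 265, 288 and 288 CPM in siIQGAP3. RPL22 and RPL37 were higher too (1.66 ± 0.07 and 1.52 ± 0.08). Processed copies make single ribosomal protein values uncertain, and siControl libraries 1 and 2 summed to 84809.9 and 92598.5 CPM and library 3 to 43335.8 CPM. All 22 unfolded protein and amino acid stress genes were tested, of which 14 were higher and 0 lower, and without siIGF2BP1 library 3 it was 14 and 5. DDIT4, an inhibitor of mTORC1, was at 782, 795 and 639 CPM in siIGF2BP1 and 13.7, 12.1 and 12.5 CPM in siIQGAP3. CHAC1, which breaks down glutathione, was at 88.6, 98.4 and 108 CPM in siIGF2BP1 and 9.45, 9.67 and 10.4 CPM in siIQGAP3. SHMT2, of mitochondrial serine use, and CEBPB, a transcription factor, were higher as well (1.77 ± 0.08 and 2.06 ± 0.10). In siControl libraries 1, 2 and 3 the level of DDIT4 was 1026, 1247 and 11.1 CPM.

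Mitotic and replication genes held few higher calls with siIGF2BP1 library 3 in the test, and more without it. The genes named from both lists are those of smallest p-value, all lower, and the higher members are not named. All 36 mitotic genes were tested, of which 5 were higher and 14 lower, with a median of -0.21, and it was 15 higher and 17 lower without siIGF2BP1 library 3, and 1 and 8 in the 15-library fit. Beside FOXM1, the cytokinesis genes ANLN, KIF23 and ECT2 were lower (-0.84 ± 0.07, -0.84 ± 0.08 and -1.15 ± 0.12). All 37 G1/S and replication genes were tested, of which 5 were higher and 12 lower, and without library 3 it was 14 and 16. At least 2-fold differences were found for 3 of the higher and 8 of the lower members, and the largest log2 fold change was 1.66. CDK4 was at 119, 119 and 101 CPM in siIGF2BP1 and 240.1, 246 and 239.6 CPM in siIQGAP3. The cyclin gene CCNE1 was at 18.4, 18.6 and 13.3 CPM in siIGF2BP1 and 43, 44.3 and 45.9 CPM in siIQGAP3, and CDC6, which loads the replicative helicase, and the checkpoint kinase CHEK1 were lower (-1.1 ± 0.10 and -0.77 ± 0.08). All 20 p53 targets were tested, of which 4 were higher and 8 lower, and 14 were lower without library 3. MDM2, the p53 ubiquitin ligase, was at 48.2, 44 and 74.8 CPM in siIGF2BP1 and 183, 178 and 186 CPM in siIQGAP3, AEN and SESN1 were lower (-1.74 ± 0.14 and -0.90 ± 0.10) and FDXR was higher (0.90 ± 0.09).

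All 22 cholesterol and fatty acid genes were tested, of which 11 were higher and 7 lower, and in the 15-library fit it was 3 and 3. The regulator SREBF1 was at 418, 437 and 532 CPM in siIGF2BP1 and 81.6, 75.7 and 77.6 CPM in siIQGAP3. SQLE, an early sterol enzyme that lies in the chromosome 8 stretch below, was at 1099.6, 1048 and 838 CPM in siIGF2BP1 and 176, 173 and 173 CPM in siIQGAP3. Both were above siIQGAP3 in every siIGF2BP1 library. SCD, the fatty acid desaturase, was at 3974, 3869 and 5774 CPM in siIGF2BP1 and 947, 870.2 and 915 CPM in siIQGAP3. All 27 hypoxia and glycolysis genes were tested, of which 10 were higher and 8 lower, near the background. HK1, ENO2, the glucose transporter SLC2A1 and LDHB were lower (-1.45 ± 0.06, -1.25 ± 0.06, -1.53 ± 0.08 and -1.37 ± 0.07). Of the 10 higher members, chosen after their values were seen, the carbonic anhydrase gene CA9 (5.0 ± 0.71), the aldolase gene ALDOC (3.12 ± 0.25) and VEGFA, the vascular growth factor (2.79 ± 0.28), differed most. Of 27 interferon genes 26 were tested, of which 7 were higher and 14 lower, and in the 15-library fit it was 3 and 8. IFI6 was at 12.4, 14.4 and 16.7 CPM in siIGF2BP1 and 92.3, 80.3 and 91.4 CPM in siIQGAP3 and OAS1 was lower (-2.38 ± 0.21), while IFI44L was at 65, 59.3 and 76.3 CPM in siIGF2BP1 and 16.3, 17.5 and 18.5 CPM in siIQGAP3 and IFIT5 was higher (1.82 ± 0.13). All 9 heat shock and oxidative stress genes were tested, of which 4 were higher and 5 lower, and in the 15-library fit 0 were higher. HSPH1 was at 87.9, 83.9 and 90.7 CPM in siIGF2BP1 and 233, 229 and 238 CPM in siIQGAP3, and the chaperone genes HSPA1A and HSPD1 and the co-chaperone BAG3 were lower (-2.73 ± 0.42, -0.48 ± 0.07 and -0.64 ± 0.09).

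Differences between the groups also ran along chromosomes. Genes were put in the order of the RefSeq table (assembly GRCh38, order only), and runs were taken where the median log2 fold change of 15 neighbouring genes was at least 1.2 in size over 8 or more genes, limits chosen after the values were seen. Tested genes whose mean reached 1 CPM in either group were used, of which 15370 were placed and 539 were not. Of those placed, 644 lay in 36 runs, 21 of them higher and 15 lower in siIGF2BP1. The runs were cut by these same log2 fold changes, so their medians, directions and calls, here and below, describe the choice and carry no test. The longest lay on chromosome 8 from CSMD3 to CASC8, with 47 genes and a median of 2.99. Of these genes 41 were called higher and 5 lower, beside 36.3% and 32.3% of all genes. It holds cohesin subunit RAD21, the growth plate genes TRPS1 and EXT1, the hyaluronan synthase HAS2 and ENPP2, which makes lysophosphatidic acid, as well as SQLE. Relative to siIQGAP3, the genes of this run had medians of 2.85, 2.66 and 3.16 in the siIGF2BP1 libraries and of 3.02, 3.13 and -0.06 in siControl libraries 1, 2 and 3. A second run on chromosome 8, PAG1 to LRRC69, held 29 genes with a median of 2.02, and siControl library 3 was at 0.10.

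Other runs of higher genes were the HOX regions of chromosomes 7 (HOTAIRM1 to HIBADH, 19 genes, median 3.26), 12 (ATP5MC2 to LINC02381, 18 genes, 4.14), 17 (HOXB2 to IGF2BP1, 19 genes, 2.5) and 2 (ATF2 to HOXD3, 14 genes, 2.63). A run of chromosome X from MAGEA4 to SSR4 held 30 genes with a median of 1.61. The lower runs included 5 on the first part of chromosome 12, among them DPPA3 to LOC374443 with 29 genes, all in the same direction, and a median of -1.90. On chromosome 19 a cluster of zinc finger genes from ZNF93 to ZNF726 held 34 genes, all in the same direction, with a median of -2.53, and a second from PPP2R1A to ZNF813 held 32 with -1.59. On chromosome 15 the imprinted stretch from MAGEL2 to GABRA5 held 12 genes with a median of -3.33. Chromosome copy number was not measured, and its part in these runs was not tested.

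**Figure D5:**
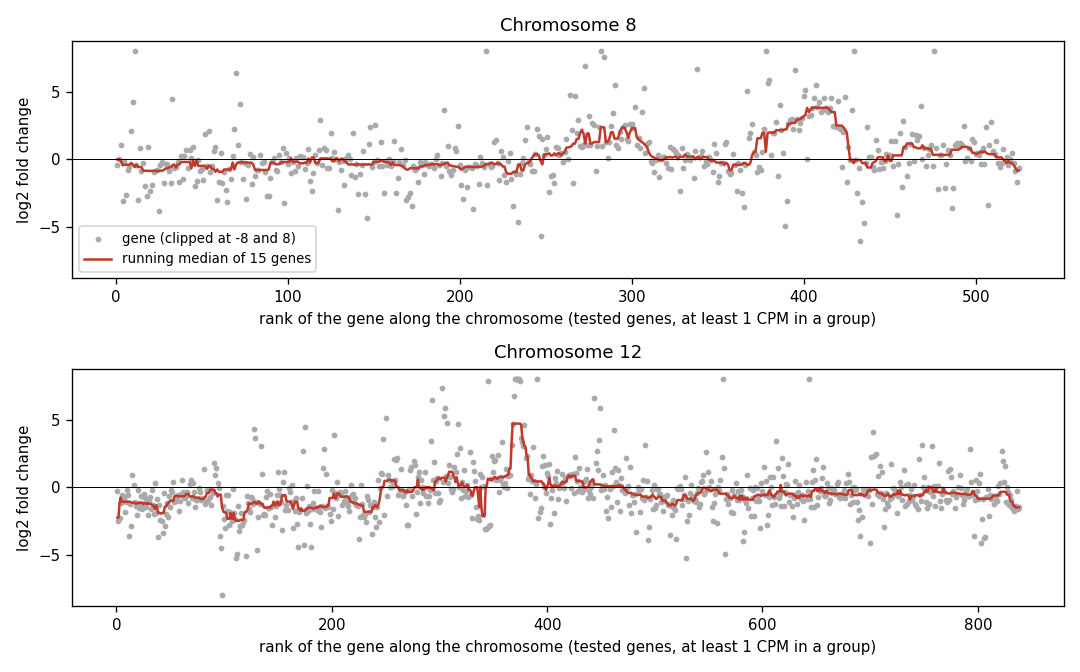
Log2 fold change (siIGF2BP1 minus siIQGAP3) of the placed genes whose mean reached 1 CPM in either group, against their rank along chromosomes 8 and 12, with the running median of 15 genes as a line. On chromosome 8 the line rises to a long plateau at the 47 genes from CSMD3 to CASC8 (median 2.99), and on chromosome 12 it lies below 0 over the first runs and peaks at the HOXC region (median 4.14).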

How the data were processed

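Paired reads of 100 bp were sequenced, as the labels' protocols state. The submitters' processing notes name STAR, SAMtools, featureCounts and the build GRCh37, while tool versions, the annotation and the strand setting are not given in the sources used here. Whole-number counts for 28207 gene symbols were deposited by the authors, with a normalised table, whose values are a signal of counts scaled by 1 factor per library. For 20398 of 20407 genes the deposited tables agreed at 1 factor (tolerance 1e-06), and for the other 9 (the 4 siRNA targets, A1BG, KLF4, MYC, NANOG and POU5F1) they did not, by -29.1% to 10.8% in the 6 libraries. The counts were used.

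Column names hold a group without a replicate number, and library numbers serve as names alone. The 3 siIGF2BP1 and 3 siIQGAP3 libraries were filtered with filterByExpr, scaled by TMM and tested with edgeR 4.0.16 (R 4.3.3) by its quasi-likelihood F test with 4 residual degrees of freedom among libraries and no covariates, and p-values were adjusted over all genes tested. Of the counted genes 4156 had no count in the 6 libraries. CPM of siControl libraries were put on the same scale and entered no test. The test was checked on simulated counts with 200 changed genes, of which 99% were recovered, and 3.88% of the calls were false. Those counts had 1 spread for all genes, few changed genes and no library that stood apart. The check therefore says nothing about the rate of false calls in these data.

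The members and the 36 gene lists were chosen with earlier results of these data known. All 893 entries were found, and 841 passed the filter. Named genes are the 4 siRNA targets, the 12 largest increases and decreases among called genes averaging 5 CPM or more in 1 group and no overlap between libraries, and, from each list, the called members of smallest p-value, up to 4. Some genes that this rule names are not reported here. Genes outside the rule are said to be chosen after their values were seen, or complete a count. Alternatives were all 15 libraries in 1 fit, relative log expression factors, library totals, other filters, DESeq2 1.42.0, limma 3.58.1 (voom, and trend on log2 of the deposited signal plus a pseudocount of 1), each library left out, and the normalised values of the 9 genes, this last added after seeing the data. Counting intervals are exact, at 95%. Promoter sequences are RefSeq's, build GRCh38.p14, matched by symbol.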

Additional observations from a re-analysis of the deposited data

How the results depend on the processing

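The number of genes called was 12192, and it was 9367 with all 15 libraries in 1 fit, 12250 with relative log expression factors, 12186 with library totals, 12734 with no filter, 10832 with a mean of at least 1 CPM, 12554 by DESeq2, 12341 by limma-voom, 12413 by limma-trend on the normalised values and 12191 with the normalised values of the 9 genes. Leaving out each library in turn gave 10435 to 15606 calls, the highest without siIGF2BP1 library 3. The share of calls that were higher ran from 49.5% to 56.0%. Of the genes called here, 9060 were also called in the same direction in the 15-library fit and 11991 by DESeq2. Genes named by the rule kept their direction and their call under these alternatives, except STRA6 (adjusted p = 0.163) and PLAGL1 (adjusted p = 0.0514) in the 15-library fit, and the cause was not tested. CER1 was not tested with a mean of at least 1 CPM. The endoderm median changed sign from -0.89 to 2.77 with a mean of at least 1 CPM, where fewer of its members were tested. No paired analysis was possible because the columns carry no replicate number. With 35275570 to 42920197 counts a library, a single count is near 0.03 CPM.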
